A study of Rattus norvegicus with 12 samples.

Results

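The genes described here encode the potassium channels of the rat urinary bladder, with their regulatory subunits. They were taken as every gene of the deposited gene table whose symbol begins with Kcn, followed by the letters and number of a channel gene, and whose reads summed to at least 100 over the 12 libraries. The table lists 93 such symbols, and 53 of them met the rule. All 53 passed the filter on low counts that left 17687 of the 40154 listed genes for testing. Bladders came from female Wistar rats aged 10 to 12 weeks. The injured rats had the spinal cord cut through completely at thoracic segment 10 (segments 9 to 10 in the series' design text), and their bladders were taken at day 7, day 14 or day 28. The controls are labelled normal controls, and the labels name no operation for them. Each of the 4 groups had 3 libraries, made from RNA depleted of ribosomal RNA and holding 26275314 to 30747936 counted reads. The design text speaks of more rats than there are libraries here, and nothing ties each library to a named animal, so p-values measure the spread between these samples.

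Potassium channels let potassium leave the cell and so pull the membrane towards its resting potential. In detrusor, the smooth muscle of the bladder wall, action potentials carried by calcium drive contraction, and potassium currents end them and set how easily the next begins. The large-conductance BK channel opens on depolarisation and calcium, the SK and IK channels on calcium alone, inward rectifiers and two-pore channels hold the resting potential, and voltage-gated (Kv) channels, among them the KCNQ and ERG types, repolarise. Many pores take on subunits that set their gating, and "silent" subunits form no channel alone but change the delayed rectifier channels they join. In whole bladder, fewer cells of a type and less RNA per cell cannot be told apart.

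Levels between genes are compared in the authors' transcripts per 1000000 (TPM), a unit per gene length. In control bladder Kcnk1, a two-pore channel, was highest with a mean of 72.3 TPM ± 6.87 (SD, n = 3). It was followed by Kcnmb1, the smooth muscle beta subunit of BK, at 67.0 ± 3.06 TPM and Kcnma1, the BK pore, at 55.4 ± 7.51 TPM. Kcnj8, the pore of the ATP-sensitive channel of smooth muscle, stood at 39.6 ± 5.94 TPM, the ERG channel Kcnh2 at 29.7 ± 3.04 TPM and the silent subunit Kcng1 at 21.6 ± 1.93 TPM. Among these 6 neighbours in the order, the ranges of mean ± SD overlapped for Kcnk1 and Kcnmb1 and for no other pair. Kcnk1 made up 17.8%, 15.3% and 19.8% of the members' summed TPM in the control libraries and 20.6%, 29.6% and 40.4% in the day 28 libraries, though Kcnk1 itself was not called against control at day 28. The share of Kcnma1 was 12.8%, 15.1% and 12.5% in control and 8.28%, 6.04% and 6.73% at day 28. For both genes the shares at day 28 did not overlap those in control, and neither share was tested. Kcnk1 was singled out after its values were seen.

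**Figure D1:**
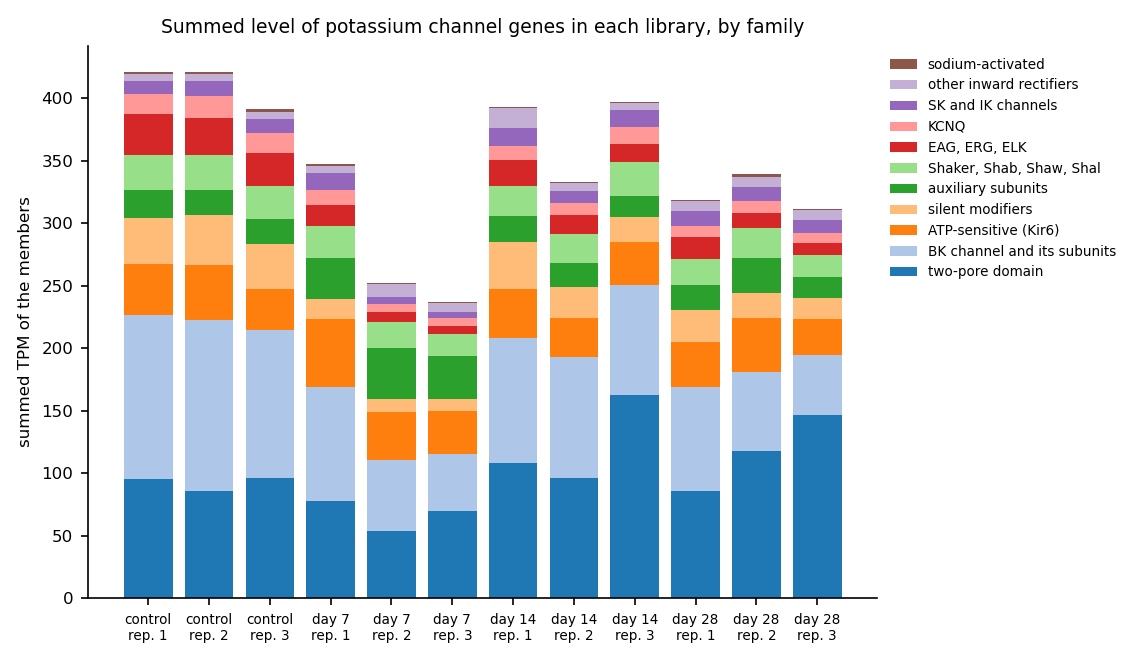
Summed TPM of the 53 potassium channel genes in each of the 12 libraries, stacked by channel family. The total was 391 to 421 TPM in the controls and 237 to 348 TPM at day 7, and the BK segment was smaller in each injured library than in each control library.

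The summed level of all members was 391 to 421 TPM in the controls. It was 237 to 348 TPM at day 7, 333 to 397 TPM at day 14 and 311 to 339 TPM at day 28. The day 7 and day 28 libraries all lay below the controls, and 2 of the 3 day 14 libraries lay within the range of the controls. Within this sum the BK genes made up 118 to 137 TPM in control, 45.7 to 91.2 TPM at day 7, 87.5 to 99.8 TPM at day 14 and 48.1 to 82.8 TPM at day 28. These sums are given as descriptions, with no test.

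Each day was compared with control in 1 edgeR quasi-likelihood model over all 12 libraries, and a gene was called at a Benjamini-Hochberg adjusted p under 0.05. Adjusted p-values below come from that model, and log2 fold changes carry its standard error (SE). At day 7, 18 of the 53 members were called (34.0%), against 26.1% of all 17687 genes tested. Of these 9 were higher and 9 lower, where 15.6% of all genes were called higher and 10.5% lower. At day 14, 3 members were called (5.66%), 1 higher and 2 lower, against 2.45% of all genes, of which 1.45% were higher and 0.995% lower. At day 28, 13 members were called (24.5%), 4 higher and 9 lower, against 18.5% of all genes, of which 11% were higher and 7.51% lower. The median log2 fold change over the 53 members was −0.24, −0.21 and −0.15 at the 3 days, where that over all tested genes was −0.01, 0.00 and 0.00. The 3 comparisons share their control libraries. Over them 22 members were called at least once and 31 never, and Kcnma1 and Kcnab2 were called at all 3 days.

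**Figure D2:**
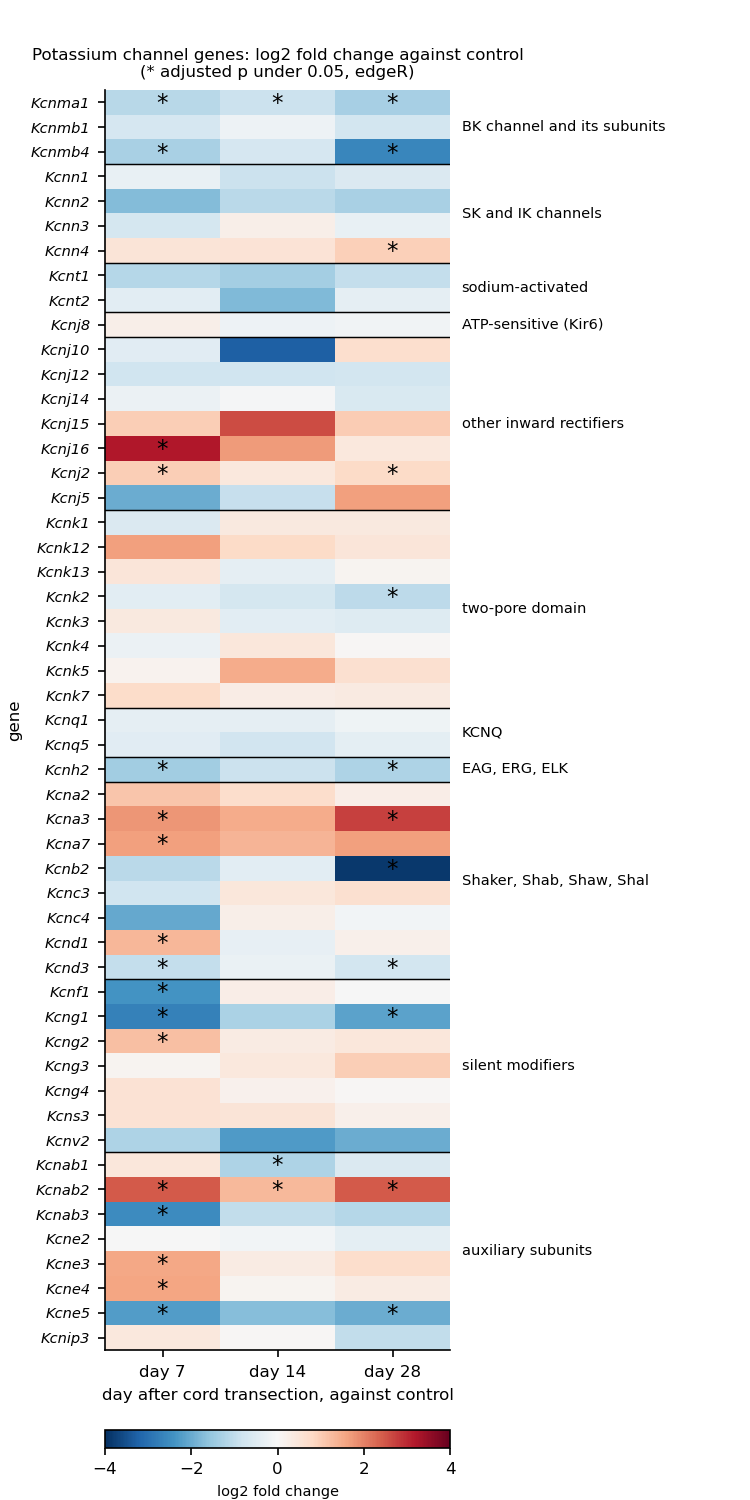
Log2 fold change of 51 of the 53 members (rows, grouped by family) against control at day 7, day 14 and day 28 (columns), on a colour scale from −4 to 4, with a star where the adjusted p was under 0.05. Stars stand at 17 of these genes at day 7, 3 at day 14 and 12 at day 28, and those of the BK and ERG families are all on lower values.

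RNA of the BK pore was lower at every day. Kcnma1 (chr15:344204-1048849 on rn6, plus strand) stood at 141, 169 and 132 counts per 1000000 (CPM) in the controls, 83.3, 68.5 and 51.9 at day 7, 97.0, 70.3 and 75.1 at day 14, and 69.0, 53.0 and 55.2 at day 28. Every injured library lay below every control library. Log2 fold changes were −1.12 ± 0.19 (SE) at day 7 (adjusted p = 0.00152), −0.87 ± 0.18 at day 14 (adjusted p = 0.0387) and −1.32 ± 0.19 at day 28 (adjusted p = 0.000909). The day 14 call was lost on leaving out any 1 control library or day 14 replicate 2 or 3, with adjusted p from 0.00103 to 0.145 over the alternatives, and the other calls held in each alternative run. A non-coding gene on the opposite strand of Kcnma1 held 140 reads in all, against 30262 for Kcnma1.

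Kcnmb1 (chr10:18910586-18922856, plus strand), whose product raises the channel's calcium sensitivity in smooth muscle, was not called in the model of all libraries. Its levels were 242, 235 and 228 CPM in the controls, 215, 115 and 111 at day 7, 187, 231 and 190 at day 14, and 191, 142 and 89.6 at day 28. All day 7 and day 28 libraries lay below the controls, but replicate 1 of each of those days was close to them. Its log2 fold change was −0.68 ± 0.28 at day 7 (adjusted p = 0.0953) and −0.74 ± 0.28 at day 28 (adjusted p = 0.0899), and it was called at −1.06 without day 7 replicate 1 (adjusted p = 0.00962) and at −1.03 without day 28 replicate 1 (adjusted p = 0.0306). DESeq2 also called it at day 28 (adjusted p = 0.0448). With replicate number as a block, edgeR called it at day 7 (adjusted p = 0.0398) and day 28 (adjusted p = 0.0366). Kcnmb4, the beta subunit best known from neurons, was 3.41, 3.17 and 2.68 CPM in the controls, 1.28, 0.765 and 1.70 at day 7, 2.51, 1.62 and 1.70 at day 14, and 0.534, 0.300 and 0.674 at day 28. Its injured libraries all lay below the controls, and the day 28 libraries lay below all others. It fell by 1.30 ± 0.36 on the log2 scale at day 7 (adjusted p = 0.0207) and by 2.61 ± 0.38 at day 28 (adjusted p = 0.00112). The day 7 call was lost without control replicate 1 or 2 or day 7 replicate 2, with adjusted p up to 0.077. The 10 markers of neurons and nerve fibres summed to 669 to 783 CPM in control, 441 to 517 at day 7, 546 to 697 at day 14 and 501 to 633 at day 28. Of the 7 that were tested, 3 were called lower and 1 higher at day 7, and 1 lower and 1 higher at day 28, and their part in the Kcnmb4 values was not tested.

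**Figure D3:**
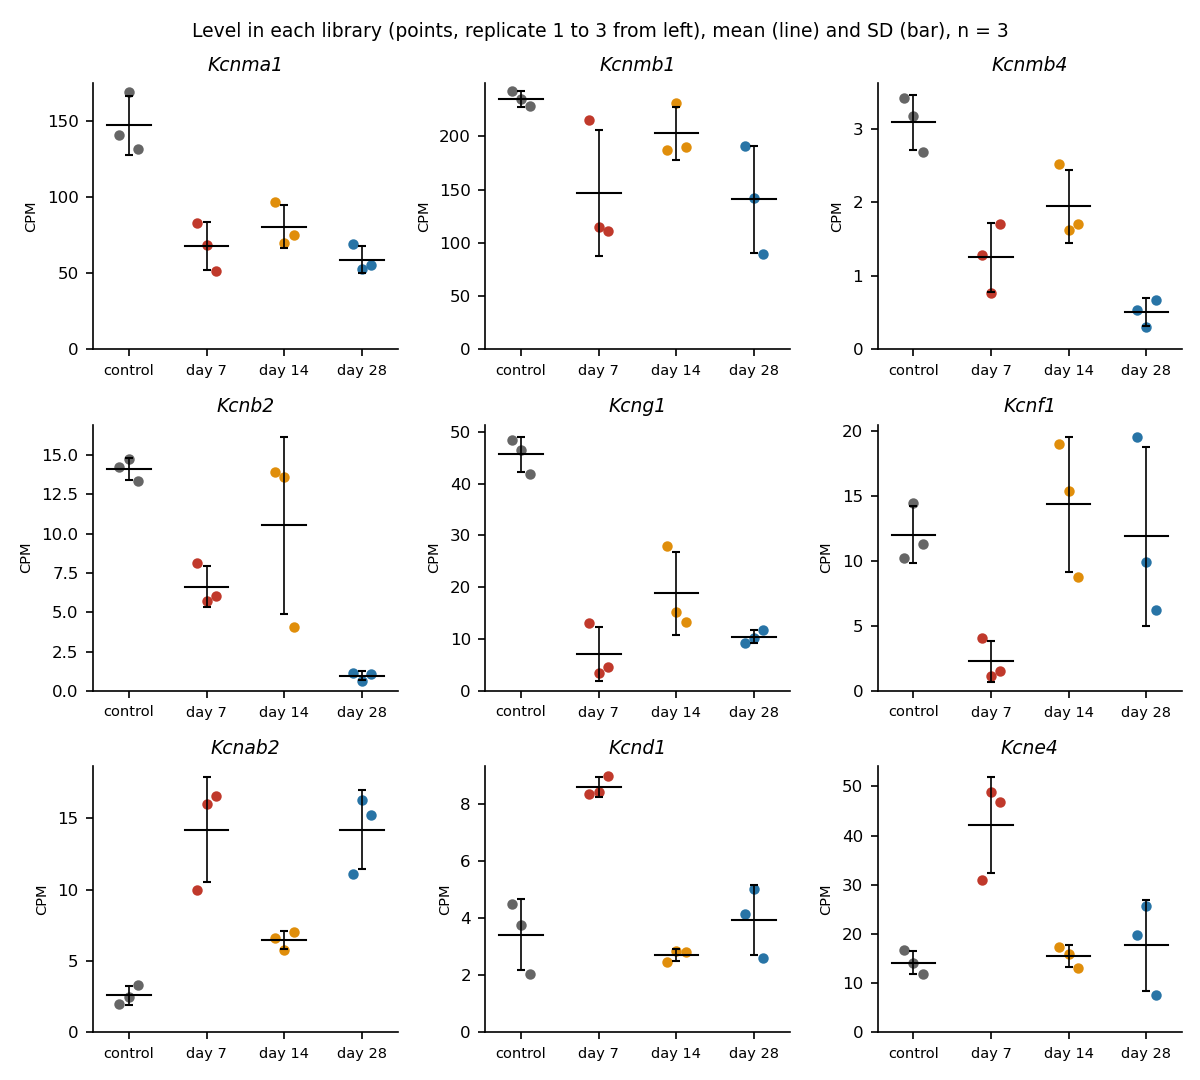
Level in CPM of 9 members in each library (points, replicates 1 to 3 from left to right), with the mean (line) and SD (bar) of the 3 libraries in each group. Kcnma1 is lower in every injured library than in every control library, Kcnb2 is near 1 CPM in the 3 day 28 libraries, and Kcnf1 is low at day 7 alone.

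The promoters of the BK pore, its smooth muscle subunit and the auxiliary subunit Kcnab2 show how unlike the upstream sequence of these genes is, while the RNA of the first fell and that of the last rose at all 3 days. They are from RefSeq on build GRCr8, from 250 bases before to 50 bases after the gene's start, 5′ to 3′ on the gene's strand, with GC boxes in capitals (GGGCGG, or its reverse complement CCGCCC). Kcnma1 lies at chr15:351675-351974 (plus strand), Kcnmb1 at chr10:19061849-19062148 (plus strand) and Kcnab2 at chr5:168270711-168271010 (minus strand).
Kcnma1: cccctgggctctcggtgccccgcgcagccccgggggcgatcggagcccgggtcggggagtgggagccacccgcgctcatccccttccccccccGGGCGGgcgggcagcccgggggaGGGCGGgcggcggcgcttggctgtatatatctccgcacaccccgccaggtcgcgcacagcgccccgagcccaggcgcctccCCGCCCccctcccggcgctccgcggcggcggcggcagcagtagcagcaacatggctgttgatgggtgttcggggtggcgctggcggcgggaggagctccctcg
Kcnmb1: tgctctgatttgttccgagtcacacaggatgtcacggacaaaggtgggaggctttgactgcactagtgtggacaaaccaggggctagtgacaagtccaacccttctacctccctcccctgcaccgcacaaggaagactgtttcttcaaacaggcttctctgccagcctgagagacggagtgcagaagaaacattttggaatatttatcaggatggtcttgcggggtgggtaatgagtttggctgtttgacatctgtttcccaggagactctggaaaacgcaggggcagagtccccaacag
Kcnab2: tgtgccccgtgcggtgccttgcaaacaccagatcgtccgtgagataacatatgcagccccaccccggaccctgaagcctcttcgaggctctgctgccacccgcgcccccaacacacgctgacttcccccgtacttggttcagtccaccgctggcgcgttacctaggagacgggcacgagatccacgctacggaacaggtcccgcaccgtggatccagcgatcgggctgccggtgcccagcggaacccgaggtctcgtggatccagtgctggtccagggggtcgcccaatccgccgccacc
The Kcnma1 promoter held 38 CG pairs in 300 bases with 78.3% G and C, and the other two held 6 CG pairs with 51.7% and 28 CG pairs with 66.0%. Only the first of these 3 held a GC box. Of the 53 members 37 matched a RefSeq symbol, with 40 promoters. A GC box stood in 24 of the 40 (60%), against 33.1% of the 33469 promoters in the table. The TATA box letters TATAAA, searched on both strands, were in 0 of the 40 and in 14.2% of all, and the GATA letters AGATAA were in 5 (12.5%) and in 11.6% of all. The AP-1 letters TGANTCA (with C or G at N) were in 0 of the 40 and in 4.63% of all, and a CArG box was in 0 of the 40 and in 1.64% of all. The median was 16.5 CG pairs over the members and 7 over all promoters. These matches describe letters in these windows only.

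Among the calcium-activated channels without a voltage sensor, the IK gene Kcnn4, known from immune and endothelial cells, was higher at day 28 by 0.96 ± 0.24 on the log2 scale (adjusted p = 0.0181). It stood at 5.08, 7.54 and 5.40 CPM in control and at 7.87, 11.7 and 15.5 at day 28, with no overlap. The call was lost without control replicate 1 or 3 or day 28 replicate 3 (adjusted p up to 0.0746). Of 8 endothelial markers 7 were called higher at day 7 and 6 at day 28, with sums of 215 to 237 CPM in control, 677 to 780 at day 7, 234 to 403 at day 14 and 342 to 560 at day 28, and their part in the Kcnn4 values was not tested. Kcnn3, the SK gene with the highest level here, was 18.4, 20.5 and 19.8 CPM in control but 27.4, 4.59 and 4.27 at day 7. Day 7 replicate 1 lay above the controls and the other two far below, so that the log2 fold change was −0.70 ± 0.61 (adjusted p = 0.427), and −2.15 without replicate 1 (adjusted p = 0.00214). Kcnn2, another SK gene, was low: 1.32, 1.20 and 1.50 CPM in control and 0.807, 0.174 and 0.217 at day 7, with a log2 fold change of −1.74 ± 0.62 (adjusted p = 0.0596) that DESeq2 called (adjusted p = 0.0286), as did edgeR without day 7 replicate 1 (adjusted p = 0.00969). For Kcnn1, with 871 reads over the 12 libraries, the deposited table of non-coding transcripts lists 2 non-coding isoforms with 543 and 532 reads. Isoforms can share reads, so these counts do not add up to a share of the gene. For the two-pore gene Kcnk4, with 837 reads, 1 non-coding isoform is listed with 737.

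The pore of the ATP-sensitive channel of smooth muscle, Kcnj8, was 31.3, 34.5 and 25.9 CPM in control, 44.1, 31.5 and 31.7 at day 7, 28.7, 24.1 and 26.2 at day 14, and 27.9, 32.3 and 22.2 at day 28. Its groups overlapped in each comparison with control, and the adjusted p was 0.366, 0.584 and 0.593. Its partner gene Abcc9, which encodes the SUR2 subunit that binds nucleotides and drugs, was lower at all 3 days. Abcc9 stood at 196, 178 and 175 CPM in control, 106, 77.9 and 80.5 at day 7, 106, 84.5 and 94.8 at day 14, and 120, 87.8 and 72.6 at day 28. Every injured library lay below every control, with log2 fold changes of −1.05 ± 0.18, −0.94 ± 0.18 and −0.97 ± 0.18 (adjusted p = 0.00167, 0.0255 and 0.00365). The ratio of Abcc9 to Kcnj8 in TPM was 1.45 ± 0.194 (SD, n = 3) in control, 0.590 ± 0.0153 at day 7, 0.861 ± 0.0245 at day 14 and 0.818 ± 0.191 at day 28, given with no test. Kcnj11, the pore of the pancreatic and cardiac form, had 18 reads in all and lies below the rule.

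Kcnj2, a strong inward rectifier that holds the resting potential, was higher at day 7 and day 28. It stood at 10.9, 9.11 and 8.15 CPM in control, 14.5, 23.0 and 18.4 at day 7, 12.0, 12.4 and 13.6 at day 14, and 18.1, 15.2 and 14.9 at day 28. All injured libraries lay above all controls. This was a log2 fold change of 0.99 ± 0.17 at day 7 (adjusted p = 0.00203) and 0.78 ± 0.17 at day 28 (adjusted p = 0.0101), and 0.43 ± 0.17 at day 14 (adjusted p = 0.219). The day 28 call was lost without control replicate 3 (adjusted p = 0.0502). Kcnj16, an inward rectifier subunit, went from 0.278, 0.474 and 0.0357 CPM in control to 0.660, 3.02 and 3.66 at day 7, by 3.20 ± 1.02 on the log2 scale (adjusted p = 0.0378). Its groups did not overlap, replicate 1 was nearest to control, and the call was lost without any 1 control library or day 7 replicate 2 or 3 (adjusted p up to 0.115). Of the 7 inward rectifiers other than Kcnj8, 2 were called at day 7 (28.6%, against 26.1% of all genes tested). At day 28 it was 1 (14.3%, against 18.5%).

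The two-pore channels summed to 85.6 to 96.6 TPM in control, mostly through Kcnk1. Kcnk1 stood at 113, 98.6 and 120 CPM in control, 74.5, 57.2 and 88.9 at day 7, 124, 115 and 193 at day 14, and 98.6, 149 and 191 at day 28. The day 7 libraries lay below all others. Against control its log2 fold change was −0.59 ± 0.25 at day 7 (adjusted p = 0.111), 0.38 at day 14 and 0.40 at day 28, none of them called in the model of all libraries. With only the 2 groups fitted, the day 7 fall was called (adjusted p = 0.0264). The 10 urothelial markers summed to 7632 to 8598 CPM in control, 4937 to 6182 at day 7, 6946 to 8573 at day 14 and 5793 to 7417 at day 28, and their part in the Kcnk1 values was not tested. Kcnk2, a channel opened by stretch, was 6.40, 6.74 and 6.11 CPM in control and 2.20, 3.13 and 3.88 at day 28, with no overlap. It fell by 1.06 ± 0.34 on the log2 scale (adjusted p = 0.0484). That call was lost on leaving out any 1 library of either group and with replicate number as a block (adjusted p up to 0.129). Kcnk3, an acid-sensitive channel, had a log2 fold change of 0.38 ± 0.30 at day 7 (adjusted p = 0.375), and at day 28 it was called lower, by −0.53, only with the 2 groups fitted alone (adjusted p = 0.0425). Of the 8 two-pore genes 1 was called, at day 28 (12.5%, against 18.5% of all genes tested). At day 7 edgeR called 0 of the 8 in the model of all libraries, against 26.1% of all genes, with 3 at an unadjusted p under 0.05. Kcnk12, singled out after its values were seen, was called higher at day 7 by DESeq2 (adjusted p = 0.0178) and by edgeR with only the 2 groups fitted (adjusted p = 0.0242).

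Among the slow KCNQ channels, Kcnq5 had log2 fold changes of −0.47, −0.76 and −0.40 and Kcnq1 of −0.35, −0.36 and −0.18, none called by edgeR. DESeq2 called Kcnq5 at day 14 (adjusted p = 0.0446). Kcnq1 shares its locus with Cttn on the opposite strand, which holds 4586 reads against its 433. The strand setting of the counting is not given in the sources, and overlap here means that the spans from gene start to gene end overlap. Whether reads of 1 overlapping gene were counted for the other was not tested.

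Kcnh2, the ERG channel that repolarises cardiac and smooth muscle, was 73.8, 68.4 and 62.0 CPM in control, 41.7, 18.5 and 18.4 at day 7, 44.1, 34.6 and 33.1 at day 14, and 39.1, 27.1 and 21.2 at day 28. Every injured library lay below every control. Its log2 fold change was −1.38 ± 0.31 at day 7 (adjusted p = 0.00744) and −1.22 ± 0.31 at day 28 (adjusted p = 0.0177), and −0.87 ± 0.31 at day 14 (adjusted p = 0.16), where it was called with only the 2 groups fitted (adjusted p = 0.0222). The day 28 call was lost without control replicate 1 or 2 or day 28 replicate 2 or 3 (adjusted p up to 0.0661).

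Among the 9 Shaker, Shab, Shaw and Shal pores, 3 were higher and 1 lower at day 7 (44.4% called, against 26.1% of all genes tested). At day 28, 1 was higher and 2 lower (33.3%, against 18.5%). Kcnb2, a delayed rectifier of the Shab family, showed the largest fall of any called member. It stood at 14.2, 14.8 and 13.4 CPM in control, 8.14, 5.74 and 6.01 at day 7, 13.9, 13.6 and 4.04 at day 14, and 1.17, 0.633 and 1.09 at day 28. The day 28 libraries lay below all others, and day 14 replicate 3 lay apart from the other two of its day. The log2 fold change was −3.86 ± 0.44 at day 28 (adjusted p = 0.000235), and −1.09 ± 0.38 at day 7 (adjusted p = 0.0534), where DESeq2 called it (adjusted p = 0.0192), as did edgeR with only the 2 groups fitted (adjusted p = 0.00261). Amigo1, whose product binds delayed rectifier channels, was lower at day 7 by −0.90 ± 0.16 (adjusted p = 0.00211) and at day 28 by −0.58 ± 0.16 (adjusted p = 0.026), on the log2 scale.

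The transient, Shal-type channels Kcnd3 and Kcnd1 were called in opposite directions at day 7. Kcnd3 was 44.1, 41.9 and 43.5 CPM in control, 26.1, 21.6 and 19.9 at day 7, 30.3, 35.1 and 41.2 at day 14, and 26.2, 30.5 and 21.8 at day 28. It fell by 0.94 ± 0.15 on the log2 scale at day 7 (adjusted p = 0.00131) and by 0.72 ± 0.15 at day 28 (adjusted p = 0.00746), with no overlap with control. Kcnd1 was 4.49, 3.75 and 2.04 CPM in control and 8.36, 8.41 and 8.98 at day 7, higher in every library by 1.32 ± 0.30 on the log2 scale (adjusted p = 0.00727), while day 14 at 2.47, 2.85 and 2.80 CPM and day 28 at 4.14, 5.03 and 2.60 CPM overlapped control.

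Kcna3, a Shaker channel best known from lymphocytes and macrophages, was 0.627, 0.292 and 0.607 CPM in control, 1.80, 1.53 and 1.85 at day 7, 1.13, 0.481 and 2.66 at day 14, and 2.17, 3.86 and 4.17 at day 28. The day 7 and day 28 libraries lay above the controls, as did day 14 replicates 1 and 3. Day 14 replicate 2 lay within the range of the controls. The log2 fold change was 1.75 ± 0.55 at day 7 (adjusted p = 0.0364) and 2.73 ± 0.55 at day 28 (adjusted p = 0.00627), and the day 7 call was lost on leaving out any 1 library of either group (adjusted p up to 0.125). All 10 macrophage and myeloid markers were called higher at day 7 and day 28 and 5 of 10 at day 14, and their sum was 460 to 537 CPM in control, 1731 to 2398 at day 7, 836 to 1769 at day 14 and 1468 to 2338 at day 28. Of 10 lymphocyte markers 6 were tested, of which 0 were called at day 7, 0 at day 14 and 5, all higher, at day 28. Their sums were 75.0 to 83.0 CPM in control, 84.2 to 180 at day 7, 71.9 to 99.9 at day 14 and 214 to 293 at day 28. Most of that sum is Cd4, which held 40084 reads over all libraries, and the next highest, Cd8a, held 2404. The part of these cells in the values of Kcna3, Kcnn4 and Kcnab2 was not tested. Kcna7, another Shaker channel, was called higher at day 7 by 1.64 ± 0.54 (adjusted p = 0.0426) at 0.104 to 0.182 CPM in control and 0.367 to 0.724 at day 7. That call held in 4 of 11 alternatives. Kcna7 lies below the level set for naming genes and is named because it was called.

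The silent subunits were called in both directions at day 7, with Kcng1 and Kcnf1 lower and Kcng2 higher. Kcng1 was 48.5, 46.6 and 41.8 CPM in control, 13.0, 3.48 and 4.63 at day 7, 27.9, 15.2 and 13.4 at day 14, and 9.27, 10.2 and 11.8 at day 28. All injured libraries lay below the controls. It fell by 2.70 ± 0.43 on the log2 scale at day 7 (adjusted p = 0.00121) and by 2.13 ± 0.42 at day 28 (adjusted p = 0.00551), and its day 14 value of −1.28 ± 0.41 was not called (adjusted p = 0.126), though DESeq2 (adjusted p = 0.0271) and edgeR with only the 2 groups fitted (adjusted p = 0.0422) called it. Kcnf1 was 10.2, 14.5 and 11.3 CPM in control, 4.11, 1.18 and 1.52 at day 7, 19.0, 15.4 and 8.75 at day 14, and 19.5, 9.89 and 6.23 at day 28. It was low in the 3 day 7 libraries and spread around the controls afterwards, with a log2 fold change of −2.40 ± 0.52 at day 7 (adjusted p = 0.00595). Kcng2 was 0.786 to 1.08 CPM in control and 1.56 to 2.64 at day 7, a log2 fold change of 1.21 ± 0.34 (adjusted p = 0.0237) lost without control replicate 2 or 3 or day 7 replicate 2. Kcns3 was not called by edgeR, with log2 fold changes of 0.57, 0.51 and 0.19, and DESeq2 called it at day 7 (adjusted p = 0.0478).

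Of the 8 auxiliary subunits 5 were called at day 7 (62.5%, against 26.1% of all genes tested). Kcnab2, a cytoplasmic beta subunit of Shaker channels, was the member called higher at all 3 days. It stood at 2.02, 2.48 and 3.32 CPM in control, 9.97, 16.0 and 16.6 at day 7, 6.59, 5.78 and 7.01 at day 14, and 11.1, 16.3 and 15.2 at day 28. Every injured library lay above every control, and day 14 lay between control and the other days. The log2 fold change was 2.44 ± 0.25 at day 7 (adjusted p = 0.000139), 1.31 ± 0.25 at day 14 (adjusted p = 0.0263) and 2.44 ± 0.25 at day 28 (adjusted p = 0.000148). The day 14 call was lost on leaving out any 1 control library or day 14 replicate 3 (adjusted p up to 0.108). Nphp4 overlaps it on the opposite strand with 3829 reads against 3252, and the log2 fold change of Nphp4 was 0.64, −0.03 and −0.20. Its relative Kcnab1 was called once, at day 14, where it stood at 1.35, 1.10 and 1.66 CPM against 2.72, 3.21 and 3.82 in control. That fall of 1.24 ± 0.26 on the log2 scale (adjusted p = 0.0377) was lost without any 1 library of either group. It was also lost with only the 2 groups fitted and with replicate number as a block. Ssr3 overlaps Kcnab1 on the opposite strand with 70576 reads against 955.

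The single-pass KCNE subunits also went both ways. Kcne4, which can silence KCNQ1 channels, was 16.7, 14.0 and 11.9 CPM in control, 31.0, 48.8 and 46.8 at day 7, 17.4, 16.0 and 13.0 at day 14, and 19.9, 25.8 and 7.61 at day 28. It was high in all 3 day 7 libraries, by 1.57 ± 0.35 on the log2 scale (adjusted p = 0.00751), and overlapped control at the later days. Kcne3, which holds KCNQ1 open, was 0.418, 1.02 and 1.11 CPM in control and 2.31, 2.78 and 2.39 at day 7, a log2 fold change of 1.55 ± 0.49 (adjusted p = 0.0356) lost on leaving out any 1 library, and a non-coding gene on its opposite strand holds 702 reads against its 496. Kcne5 was 1.60, 1.57 and 1.82 CPM in control, 0.697, 0.139 and 0.217 at day 7, and 0.300, 0.333 and 0.610 at day 28. It lay below the controls in all of these libraries, with log2 fold changes of −2.24 ± 0.56 (adjusted p = 0.0136) and −1.99 ± 0.55 (adjusted p = 0.0274). The day 7 call was lost without day 7 replicate 3 and the day 28 call without any 1 control library or day 28 replicate 1 or 2. Kcnab3 had 53, 10 and 26 reads in control and 11, 0 and 4 at day 7, and the groups overlapped. Its log2 fold change was −2.50 ± 0.81 (adjusted p = 0.041). That call was lost without control replicate 1 or 3 or day 7 replicate 2 or 3, and with only the 2 groups fitted.

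Of the sodium-activated genes, Kcnt1 lay below control without overlap at each day and Kcnt2 at day 14 alone, and neither was called by edgeR in the model of all libraries. Kcnt1 was called at day 7 by DESeq2 (adjusted p = 0.0271) and by edgeR with only the 2 groups fitted (adjusted p = 0.0363). At day 14 DESeq2 called Kcnt1 (adjusted p = 0.0331) and Kcnt2 (adjusted p = 0.00609), and edgeR called both without day 14 replicate 2 (adjusted p = 0.0378 and 0.0348). Both were singled out after their values were seen. Kcnt1 was 1.46 to 2.08 CPM in control and 0.473 to 1.17 at day 14, and Kcnt2 was 2.68 to 4.04 and 0.496 to 1.62. A further 19 members were called in no comparison with control in the model of all libraries, and those picked out here were chosen after their values were seen. Kcnj15, an inward rectifier, was 3.13, 2.51 and 3.32 CPM in control and 48.5, 3.85 and 2.55 at day 14, so that 1 library stood far above the rest. Kcnk5, a two-pore channel, was 5.95, 8.09 and 6.54 CPM in control and 13.2, 7.70 and 36.3 at day 14, where replicate 3 was highest and DESeq2 called it (adjusted p = 0.0159), as did edgeR without day 14 replicate 2 (adjusted p = 0.0357). The silent subunit Kcnv2 was 3.10, 6.78 and 6.11 CPM in control and 1.75, 0.894 and 0.673 at day 14, with no overlap, a log2 fold change of −2.27 ± 0.74 (adjusted p = 0.13) and calls by DESeq2 (adjusted p = 0.0216) and by edgeR with only the 2 groups fitted (adjusted p = 0.0387). Kcnj10 had 5, 11 and 16 reads in control and 0, 0 and 3 at day 14. Over all 53 members, 32 had no overlap between the control and day 7 libraries (60.4%, against 45.3% of all genes tested), 22 at day 14 (41.5%, against 24.7%) and 26 at day 28 (49.1%, against 40.5%). The members were chosen with results of these data known, so nothing is read from these shares.

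Of the symbols just inside the rule Kcnj10 held 114 reads, and of those just outside Kcns1 held 98 and Kcna5, a pore known from vascular muscle, 83.

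The days were also compared with one another, which tests whether the change against control differed between days. Between day 14 and day 7, 10 members were called (18.9%, against 19.5% of all genes), between day 28 and day 14, 3 members (5.66%, against 4.34%), and between day 28 and day 7, 9 members (17.0%, against 18.7%). From day 7 to day 14 Kcnf1 was higher by 2.66 ± 0.52 on the log2 scale (adjusted p = 0.00547), Kcng1 by 1.42 ± 0.42, Kcnk1 by 0.97 ± 0.26 and Kcnd3 by 0.66 ± 0.15. In the same comparison Kcnab1 was lower by −1.69 ± 0.26 (adjusted p = 0.00172), Kcnd1 by −1.66 ± 0.30, Kcne4 by −1.45 ± 0.35, Kcnab2 by −1.14 ± 0.24, Kcnk13 by −0.84 ± 0.27 and Kcnj2 by −0.56 ± 0.17. From day 14 to day 28 Kcnb2 fell by 3.44 ± 0.43 (adjusted p = 0.00259) and Kcnmb4 by 1.94 ± 0.38, and Kcnab2 was higher by 1.14 ± 0.24. Between day 28 and day 7 the other called members were Kcnj5, higher by 3.64 ± 0.89, and Kcnip3, lower by −1.39 ± 0.33, besides Kcnf1, Kcnk1, Kcnb2, Kcnmb4, Kcne4, Kcnd1 and Kcnab1. Kcnk13, Kcnj5 and Kcnip3 were named after their values were seen. Kcnj5 had only 3, 1 and 3 reads in the day 7 libraries and 20, 50 and 30 at day 28. It was not called against control at any day in the model of all libraries. Kcnip3, with 1245 reads, overlaps Prom2 on the same strand, which holds 32507 reads. Against control, Prom2 was lower by −0.95 on the log2 scale at day 7 (adjusted p = 0.00351) and by −1.31 at day 28 (adjusted p = 0.000908). The mean of Kcnip3 was 3.80 CPM in control, 5.05 at day 7 and 1.92 at day 28. The part of Prom2 reads in the Kcnip3 values was not tested.

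Replicate 1 of day 7 was the nearest of its group to control in 8 of the 9 members called lower at day 7 and in 7 of the 9 called higher. Without it 21 members were called at day 7, and without day 7 replicate 2 10 were. Over all genes the same runs called 4888 of 18154 and 3061 of 18127. The 10 smooth muscle markers summed to 25209 to 28079 CPM in control, 26234 to 43506 at day 7, with replicate 1 highest, 23671 to 31823 at day 14 and 10791 to 23519 at day 28, with replicate 3 lowest. At day 7 4 of these markers were called higher and 2 lower, and at day 28 2 were lower. Acta2 and Des were higher at day 7 by 0.79 and 1.11 on the log2 scale, and Smtn was lower by −0.78.

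Set against this marker sum, Kcnma1 was 5.02, 6.71 and 5.07 per 1000 marker CPM in the controls, 1.91, 2.61 and 1.71 at day 7, 3.63, 2.21 and 3.17 at day 14, and 2.93, 3.01 and 5.12 at day 28. The day 7 and day 14 libraries lay below the controls on this scale, and day 28 replicate 3, where the marker sum was lowest, lay within them. For Kcnb2 the values were 0.506, 0.585 and 0.515 in control and 0.0496, 0.0360 and 0.101 at day 28, again without overlap. For Kcnmb1 they were 8.63 to 9.31 in control, 3.65 to 4.94 at day 7, 6.99 to 8.02 at day 14 and 8.08 to 8.30 at day 28. Its libraries of each day lay below the controls. Kcnd3 at day 28 was 1.12 to 2.02 against 1.57 to 1.68 in control and overlapped it. Below control at day 28 lay Kcnh2 (1.54 to 1.97 against 2.39 to 2.71), Kcng1 (0.394 to 1.09 against 1.61 to 1.85) and Kcnmb4 (0.0170 to 0.0625 against 0.103 to 0.126). The ratio of Kcnmb1 to Kcnma1 in TPM was 1.22 ± 0.148 (SD, n = 3) in control, 1.62 ± 0.342 at day 7, 1.96 ± 0.516 at day 14 and 1.78 ± 0.482 at day 28, with overlap of the ranges at day 7 and day 28.

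**Figure D4:**
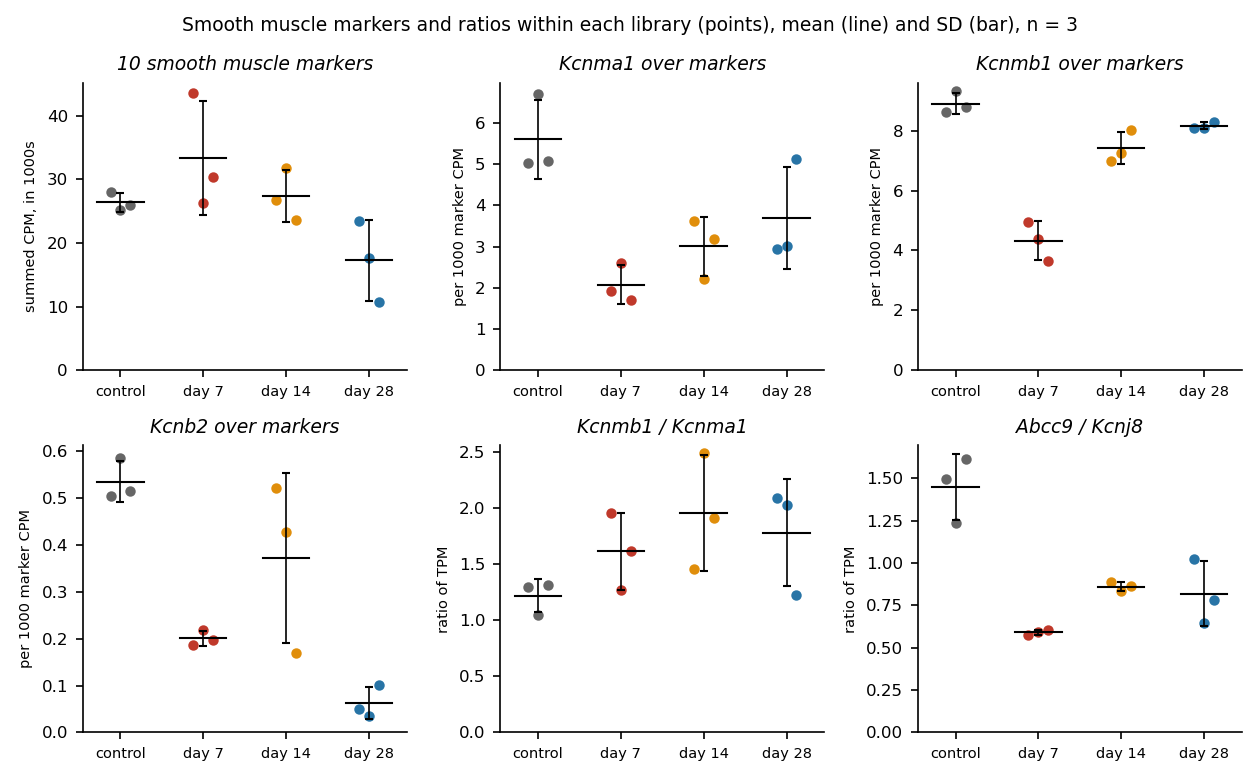
Summed level of the 10 smooth muscle markers in units of 1000 CPM, the level of Kcnma1, Kcnmb1 and Kcnb2 per 1000 marker CPM, and the ratios of Kcnmb1 to Kcnma1 and of Abcc9 to Kcnj8 in TPM, in each library (points) with the mean (line) and SD (bar), n = 3. Kcnb2 per marker is lower in all day 28 libraries than in all controls, and the Abcc9 ratio is at most 1.03 in the injured libraries and at least 1.23 in the controls.

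Lists of genes that work beside these channels were examined in the same model, where 26.1%, 2.45% and 18.5% of all genes were called at day 7, day 14 and day 28. Of 9 partners with no Kcn symbol 5 were tested, and Abcc9 and Amigo1 were lower at day 7 and day 28 and Abcc9 at day 14. Of 15 genes of calcium entry and release, 2 were higher and 7 lower at day 7 and 2 were lower at day 28. Ryr3 and Itpr1, calcium release channels of the sarcoplasmic reticulum, fell at day 7 by 1.75 ± 0.33 and 0.94 ± 0.17 on the log2 scale (adjusted p = 0.003 and 0.00245), and at day 28 by 1.23 ± 0.32 and 0.79 ± 0.17. Pln, the brake on the calcium pump, fell at day 7 by 1.94 ± 0.34 (adjusted p = 0.00195). Cacna1c, the main calcium channel of detrusor, had log2 fold changes of −0.15, 0.08 and −0.44, none called. Of 13 other depolarising or electrogenic genes, 3 were higher and 5 lower at day 7, 2 lower at day 14, and 1 higher and 5 lower at day 28. Scn7a, a sodium-sensing channel, was lower at all 3 days, by −2.40, −1.49 and −1.81 on the log2 scale.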

How the data were processed

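RNA from whole bladder was depleted of ribosomal RNA, made into TruSeq libraries and sequenced as single 50-base reads, per the labels' protocols. Tools listed in the submitters' processing notes are HISAT2 2.1.0, bcl2fastq and HTSeq 0.11.2, with rn6 as the build. The authors deposited whole-number read counts per gene and TPM values, per the file headers, and the TPM equal the count over the deposited gene length, scaled to 1 total in every library. Counts in the table of non-coding transcripts, also deposited, served only for isoforms of members.

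Groups came from the sample titles. Genes passing filterByExpr in edgeR 4.0.16 (R 4.3.3; minimum count 10, minimum total 15) were scaled by TMM and fitted in 1 quasi-likelihood model over 12 libraries, with Benjamini-Hochberg adjustment over all 17687 genes in each comparison. CPM are counts per 1000000 of the TMM-scaled library size, and the SE is the log2 fold change divided by the root of the F statistic. The fit was tested on simulated data. Counts of replicates differed with a chi-square of 15.6 to 121 for each degree of freedom, so none was a repeated library. The sample titles name no pairing and the correlations of same-numbered libraries did not settle it, so numbers were not used as pairs in the main model. The members and gene lists were chosen with earlier results of these data known. Named genes were the members called against control with a mean of at least 0.5 CPM, at most 24, and a list of channels known from bladder and vascular muscle, with up to 4 genes of each other list. Alternatives were DESeq2 1.42.0, RLE size factors, no filter on low counts, a floor of 5 CPM on the mean, a call rule that also asks for a log2 fold change of 1 in size, a fit of 2 groups alone, a replicate block and leaving out each library. The values of some genes are not reported here, though counts over all members include them. RefSeq sequences (GRCr8) gave promoters, and figures were drawn with matplotlib 3.10.9.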

Additional observations from a re-analysis of the deposited data

Results flagged for a closer look

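These results stood out because the change against control differed between days by the test of the days against each other in edgeR, at an adjusted p under 0.05, in members also called against control at 1 of the 2 days compared. Day 14 differed from day 7, on the log2 scale, by −1.69 in Kcnab1, −1.14 in Kcnab2, −1.66 in Kcnd1, 0.66 in Kcnd3, −1.45 in Kcne4, 2.66 in Kcnf1, 1.42 in Kcng1 and −0.56 in Kcnj2. Of these the Kcnab1, Kcnab2, Kcnd1 and Kcnf1 differences held in each alternative run, and that of Kcnj2 held in 4 of 13. Day 28 differed from day 14 by 1.14 in Kcnab2, −3.44 in Kcnb2 and −1.94 in Kcnmb4, and none of these held when only the 2 groups were fitted. Day 28 differed from day 7 by −2.78 in Kcnb2, −1.13 in Kcnd1, −1.25 in Kcne4, 2.39 in Kcnf1 and −1.30 in Kcnmb4, and those of Kcnb2 and Kcnf1 held in each alternative run.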

How the results depend on the processing

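Among the calls against control, 7 of 18 at day 7, 0 of 3 at day 14 and 6 of 13 at day 28 held in each alternative run, and no called member changed sign. DESeq2 called 10 members at day 14, among them the 3 of edgeR, and 7 between day 28 and day 14. Over all genes with reads, 28169 in number, DESeq2 called 1307 at day 14 and 1601 between day 28 and day 14. The edgeR model called 433 and 768 of 17687. With a mean of at least 5 CPM, which tests fewer members, 9 were called at day 7 and 4 between day 28 and day 7. Each member called at day 7 in the main model that met this floor was also called under it. Over all genes that floor gave 3627 and 2793 called of 11829. A call rule that also asks for a log2 fold change of 1 in size left 6 between day 14 and day 7, and by construction it also dropped Kcnd3, Kcnj2, Kcnn4 and, at day 14, Kcnma1. Fitting only the 2 groups compared, with fewer libraries behind the spread, gave 5 at day 14 and 0 between day 28 and day 14, where 11 had an unadjusted p under 0.05 and DESeq2 called 7. Over all genes that fit called 609 of 16633 at day 14 and 42 of 16851 between day 28 and day 14. The cause of the other shifts was not tested.

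Leaving out 1 library at a time gave 10 to 21 called members at day 7, 0 to 4 at day 14 and 9 to 13 at day 28, 6 to 14 between day 14 and day 7, 5 to 12 between day 28 and day 7 and 1 to 5 between day 28 and day 14. Over all genes tested, the same runs called 3061 to 4888 at day 7, 16 to 504 at day 14 and 1971 to 3283 at day 28. Between days they called 1959 to 3431, 1954 to 3275 and 261 to 1120, in the same order. The count at day 14 was 0 without any 1 control library or day 14 replicate 3, with 14 to 18 members at an unadjusted p under 0.05. The loss was not particular to the members. Over all genes, leaving out control replicate 1, 2 or 3 left 38, 16 and 22 called at day 14. Leaving out day 14 replicate 3 left 122, against 433 in the model of all libraries. Among the uncalled log2 fold changes given here, direction changed for 2. That of Kcnk3 at day 7 ranged from −0.048 to 0.63 and that of Kcnq1 at day 28 from −0.43 to 0.044.

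Same-numbered libraries of different groups correlated at −0.02 to 0.15 (median 0.05, 18 pairs) and differently numbered ones at −0.21 to 0.10 (median −0.02, 36 pairs). Of the 18 same-numbered pairs 5 lay above 0.1, against 1 of the 36 differently numbered. These correlations do not settle whether the numbers mark pairs. The sample titles name no pairing, so the main model had no replicate block. With a replicate block 23 members were called at day 7, 3 at day 14 and 13 at day 28. Of the calls in the main model, that of Kcnab1 at day 14 and that of Kcnk2 at day 28 were lost under the block. Over all 17687 genes the block gave 4788, 460 and 3440 called. Members gained under that replicate block were Kcnmb1 at day 7 (−0.73, adjusted p = 0.0398) and day 28 (−0.80, adjusted p = 0.0366), Kcnn2, Kcnb2, Kcnk1 and Kcnk12 at day 7 (adjusted p = 0.0192 to 0.0474) and Kcnh2 at day 14 (adjusted p = 0.0419). With the replicate block 10, 3 and 9 were called between day 14 and day 7, day 28 and day 14, and day 28 and day 7. Over all genes those comparisons gave 3662, 827 and 3463. Depth limits the members with few reads, such as Kcnab3, with 0 to 53 reads in a library.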
